A study of Homo sapiens with 6 samples.

Results

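Histone genes encode the proteins that DNA is wound on, and 84 of the 17918 genes in the table belonged to this family, chosen by gene symbol alone (symbols of the H1, H2A, H2B, H3, H4 and macroH2A series). Of these, 64 were replication-dependent genes, which lie in clusters on chromosomes 1 and 6 apart from the solitary H4-16 on chromosome 12, and 20 were variant genes scattered over the genome. They were compared in KMS11, an established human myeloma line, derived from malignant plasma cells. In 3 libraries (CRIP1 shRNA) the cells carried a short hairpin RNA against CRIP1, a gene for a small LIM domain protein, and in 3 libraries (Scramble shRNA) they carried a scrambled hairpin; both groups were otherwise untreated and grown alike. The labels give neither the number of hairpins nor whether the cells were a pool or 1 clone, and it is not stated that replicates came from separate cultures, so every p-value reflects the spread among these libraries alone, which may be technical.

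The libraries held 16971454 to 18005318 estimated counts. CRIP1 had 127.14, 128.79 and 134.23 TPM (an abundance per gene length, scaled to the same sum in every library) in CRIP1 shRNA cells, against 2790.89, 3326.68 and 3173.99 TPM in Scramble shRNA cells, which is 4.2% of the Scramble mean. Much else differed with it: 77.6% of the 12612 genes tested passed an adjusted p of 0.05 by edgeR's quasi-likelihood test, 39.4% higher and 38.1% lower in CRIP1 shRNA cells, and the median change of all genes was 0.01 on the log2 scale. Of 10 plasma cell markers, all were detected in both groups, 3 of the 8 tested were higher and 5 lower, and their summed level was 3793 to 4048 TPM in CRIP1 shRNA cells against 8371 to 8811 TPM in Scramble shRNA cells. All 13 tested erythroid markers, globin genes included, were higher in CRIP1 shRNA cells, where the list of 15 summed to 749.1 to 759 TPM, against 0.26 to 0.37 TPM in Scramble shRNA cells, where 13 of the 15 were at 0. Of 9 tested epithelial markers, 6 were higher and 2 lower, and the list summed to 141.3 to 148.7 TPM in CRIP1 shRNA cells against 22.27 to 25.36 TPM in Scramble shRNA cells; the myeloid genes LYZ and CD33 were also higher, within a list that summed to 7.2 to 7.81 TPM in CRIP1 shRNA cells against 0.91 to 1.27 TPM in Scramble shRNA cells. The part of these differences between the groups in the histone values was not tested.

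Replication-dependent histone genes supply the bulk of the core and linker histones while DNA is copied, and they are transcribed in S phase. Their mRNAs are the only ones in animal cells known to end in a conserved stem-loop in place of a poly(A) tail; the stem-loop binding protein SLBP holds it, and a particle with the U7 small nuclear RNA cuts just after it. Variant histone genes are transcribed through the cell cycle, give polyadenylated mRNAs and supply replacement histones with roles of their own. The labels name an mRNA library kit but not how mRNA was selected. Of a list of 18 RNAs made without a poly(A) tail, 0 could be analysed here, so the recovery of such RNAs was not measured, and the values of clustered genes describe what these libraries captured rather than all of their RNA.

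The stem-loop is shown here because it marks mRNAs of the replication-dependent class. GENCODE 29 transcripts (GRCh38) were searched on the transcript strand for 16 bases made of a stem (GGNNNT, closed by ANNNCC) around the loop TTTN, which were found in 31 of the 64 clustered genes, in 1 of the 19 variants with a transcript model, and in 2.67% of 17585 other genes. Of the 33 clustered genes without a match, 27 have models that stop at the coding sequence, so the search did not reach the sequence after it. The forms found are given below as DNA, 5′ to 3′, with the loop in capitals, each at the first gene named.
H2AC6 (chr6:26124669-26124684, plus strand; shared by 17 genes): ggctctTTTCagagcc
H2BC4 (chr6:26123472-26123487, minus strand; shared by 5 genes): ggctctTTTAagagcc
H4C8 (chr6:26285131-26285146, minus strand; shared by 5 genes): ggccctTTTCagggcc
H4C15 (chr1:149860769-149860784, minus strand; shared by 3 genes): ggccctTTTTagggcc
H2AC11 (chr6:27133515-27133530, plus strand): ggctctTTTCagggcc
H2AX (chr11:119094898-119094913, minus strand): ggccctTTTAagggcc
The clustered H4 genes with a match shared the stem of H2AX, while the H2A, H2B and H3 genes with a match shared the stem of H2AC6, apart from H2AC11, whose arms are 1 of each kind. Of the 31 clustered genes with a match, 22 had a model that runs on for more than 100 bases beyond it, up to 1917 bases in H2BU1.

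Clustered genes were mostly lower and variants mostly higher in CRIP1 shRNA cells. Of the 24 clustered genes that passed the filter on low counts, 3 rose, 14 fell and 7 did not pass the test, with a median log2 change of -0.56. Among all genes tested, 39.4% rose and 38.1% fell. Of the 11 variants that passed the filter, 6 rose, 3 fell and 2 did not pass the test, with a median log2 change of 0.35. That median is the value of the low gene H3-2, counted as a variant by its symbol although GENCODE names it HIST2H3PS2 in the style of the clustered genes, so its class is doubtful. The median became 0.18 without CRIP1 shRNA replicate 1, 0.55 without CRIP1 shRNA replicate 2, 0.20 without Scramble replicate 1 and 0.56 without Scramble replicate 2. The shares that passed in either direction, 70.8% of the clustered genes and 81.8% of the variants, lay near the 77.6% of all genes; the median changes of both classes stood on either side of the 0.01 of all genes. Since 7 of the clustered genes were over the filter in only some libraries, the 17 that were over it in all 6 are given apart: 2 rose, 9 fell and 6 did not pass the test, with a median of -0.40. Of the 9 variants over it in all 6, 6 rose, 2 fell and 1 did not pass the test, with a median of 0.35. On log2(TPM + 1) with limma, 7 variants were higher and 1 lower, beside 47% of all genes higher and 29.6% lower; with a trend with GC content removed, 4 variants were higher and 3 lower, beside 34% and 45% of all genes.

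**Figure D1:**
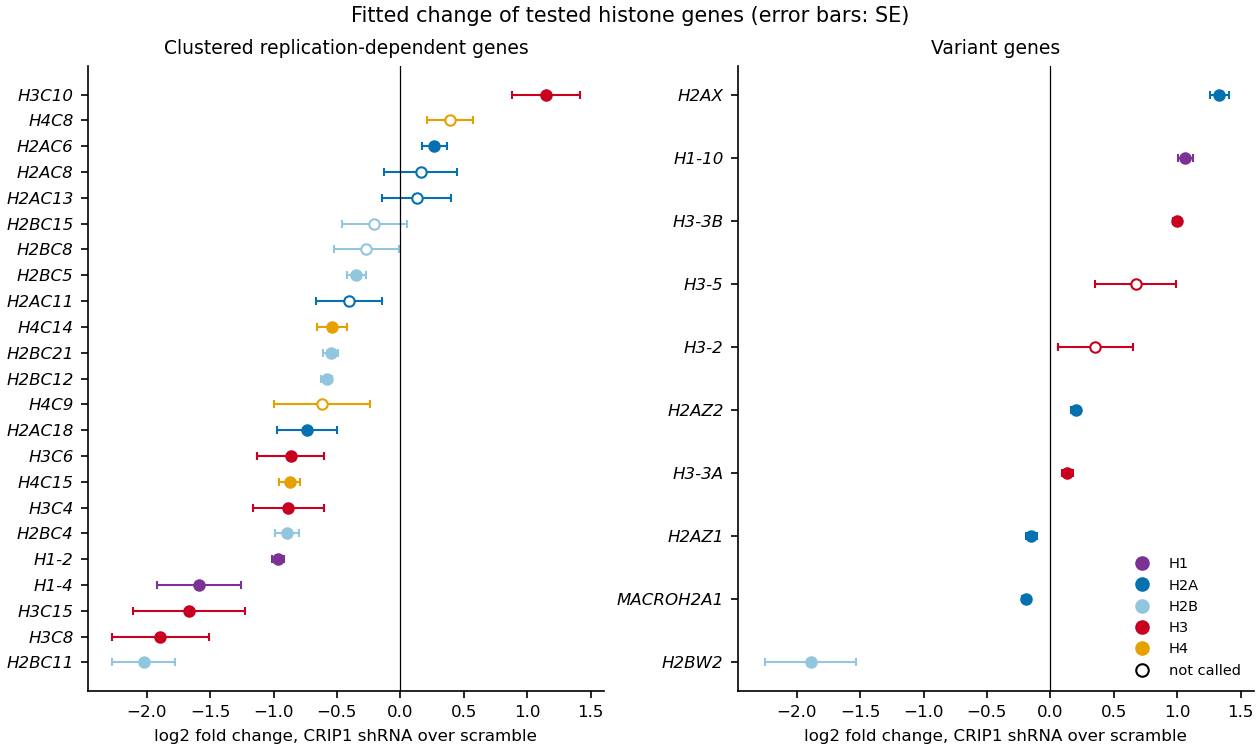
Fitted log2 fold change (CRIP1 shRNA over Scramble shRNA, x axis) of tested clustered genes (left) and variants (right), with SE as bars, coloured by histone family; open points did not pass the adjusted p of 0.05. H2AW, which had 0 Scramble counts, is not drawn. H2BC11 lies lowest at -2.02 among the clustered genes drawn, and H2AX lies highest at 1.33 among the variants drawn.

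Linker histones, which bind the DNA between nucleosomes, were called lower for both tested clustered genes, beside 38.1% of all genes. The variant H1-10 was called higher. H1-10 (chromosome 3, 129314771 to 129316277), a divergent linker histone expressed in most cells, had 585.04, 723.92 and 677.71 TPM in CRIP1 shRNA cells, against 278.37, 297.98 and 287.72 TPM in Scramble shRNA cells. The groups did not overlap, and H1-10 rose by 1.07 on the log2 scale (SE 0.06, edgeR adjusted p = 7.75e-13). H1-2 (chromosome 6, 26055787 to 26056428), the most abundant clustered linker gene here, moved the other way, with 285.59, 262.58 and 245.18 TPM in CRIP1 shRNA cells, against 473.04, 474.04 and 458.57 TPM in Scramble shRNA cells. Its groups did not overlap either, and it fell by 0.96 on the log2 scale (SE 0.05, edgeR adjusted p = 2.52e-13). H1-4, another clustered linker gene, was low in both groups, with 2.22, 1.14 and 1.01 TPM in CRIP1 shRNA cells, against 3.76, 4.07 and 4.20 TPM in Scramble shRNA cells, and fell by 1.59 (SE 0.33, edgeR adjusted p = 2.19e-04). It was over the filter in 1 CRIP1 shRNA library and 3 Scramble libraries, so it was tested through its Scramble level.

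H1-10 gave 65.6%, 72.2% and 72.0% of all H1 TPM in CRIP1 shRNA cells, against 36.5%, 38.0% and 37.9% in Scramble shRNA cells. H1-2 gave 28.1% ± 3.41 in CRIP1 shRNA cells and 60.9% ± 0.891 in Scramble shRNA cells (SD, n = 3 each). Per length, H1-2 was thus the leading linker mRNA in every Scramble library, and H1-10 in every CRIP1 shRNA library. By estimated counts, which are not scaled for length, H1-10 led in all 6 libraries, with 81.5% to 85.7% of the H1 counts in CRIP1 shRNA cells and 60.3% to 61.7% in Scramble shRNA cells. These are mRNA shares, and fewer cells with a transcript and less transcript per cell cannot be told apart in them.

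Among the H2A variants, H2AX rose most. H2AX (chromosome 11, 119093854 to 119095467), whose protein is phosphorylated around DNA breaks, had 127.36, 162.43 and 143.53 TPM in CRIP1 shRNA cells, against 51.24, 55.75 and 49.45 TPM in Scramble shRNA cells. The groups did not overlap, and the fitted change was 2.52-fold higher (log2 fold change 1.33, SE 0.07, edgeR adjusted p = 1.16e-12). H2AX is the variant whose transcripts hold the stem-loop letters printed above, 1044 bases before the end of the model, and it is known to give both a stem-loop and a polyadenylated mRNA. The pair of genes for the H2A.Z variant, found around promoters, differed less. H2AZ1 (chromosome 4) had 2658.47, 2404.16 and 2478.89 TPM in CRIP1 shRNA cells, against 2705.92, 2443.46 and 2445.24 TPM in Scramble shRNA cells, which overlap. It was the most abundant histone mRNA of the table, and on the counts it fell by 0.15 on the log2 scale (SE 0.04, edgeR adjusted p = 0.00224), a call that limma did not make on FPKM or TPM (adjusted p = 0.413 and 0.891). H2AZ2 (chromosome 7) had 150.63, 144.74 and 143.50 TPM in CRIP1 shRNA cells, against 111.38, 114.97 and 116.31 TPM in Scramble shRNA cells; its log2 change was 0.20 (SE 0.04, edgeR adjusted p = 3.98e-05), or 0.05 (adjusted p = 0.144) with the GC trend removed. MACROH2A1 (chromosome 5), a variant with a large domain outside the histone fold found on silent chromatin, had 318.22, 330.09 and 328.12 TPM in CRIP1 shRNA cells, against 342.40, 347.17 and 347.82 TPM in Scramble shRNA cells. All CRIP1 shRNA libraries were below all Scramble libraries, and its fall was 1.14-fold (log2 fold change -0.19, SE 0.03, edgeR adjusted p = 2.21e-05; adjusted p = 0.0751 by limma on TPM).

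The genes of the replacement H3 variant, H3-3A and H3-3B, make the same protein from different mRNAs, and the gap between them narrowed. H3-3B (chromosome 17, 75776434 to 75785893) had 748.60, 706.44 and 709.93 TPM in CRIP1 shRNA cells, against 331.09, 329.60 and 324.82 TPM in Scramble shRNA cells. The groups stood far apart, and H3-3B rose by 1.00 on the log2 scale (SE 0.03, edgeR adjusted p = 3.97e-16). H3-3A (chromosome 1) had 1449.82, 1467.27 and 1493.77 TPM in CRIP1 shRNA cells, against 1112.20, 1300.41 and 1244.23 TPM in Scramble shRNA cells. The TPM groups did not overlap, but the count-based log2 change was 0.13 (SE 0.04, edgeR adjusted p = 0.00892), it was 0.07 (adjusted p = 0.0955) without Scramble replicate 1, and its sign turned with the GC trend removed (-0.06, adjusted p = 0.18). H3-3B supplied 32.9% ± 0.989 of the summed TPM of both genes in CRIP1 shRNA cells and 21.3% ± 1.45 in Scramble shRNA cells (SD, n = 3 each).

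A further 3 tested variants were barely detected. H2BW2, an H2B variant known from testis and encoded on chromosome X, had 0.25, 0.31 and 0.45 TPM in CRIP1 shRNA cells, against 1.07, 1.36 and 1.02 TPM in Scramble shRNA cells, and fell by 1.89 (SE 0.36, edgeR adjusted p = 7.58e-05) on 16 counts in CRIP1 shRNA cells and 55 in Scramble shRNA cells. It was over the filter in 0 CRIP1 shRNA libraries and 3 Scramble libraries, so it was tested through its Scramble level. H3-5, an intronless relative of H3-3B, had 2.35 ± 0.195 TPM in CRIP1 shRNA cells and 1.32 ± 0.526 TPM in Scramble shRNA cells (SD, n = 3 each) and did not pass the test (edgeR adjusted p = 0.0601, or 0.0418 without Scramble replicate 3); 21.8% of its 50-base windows also occur in H3-3B, so part of its counts may be shared. H3-2 did not pass either (log2 fold change 0.35, SE 0.29, edgeR adjusted p = 0.276), and all of its 50-base windows also occur in another annotated locus.

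**Figure D2:**
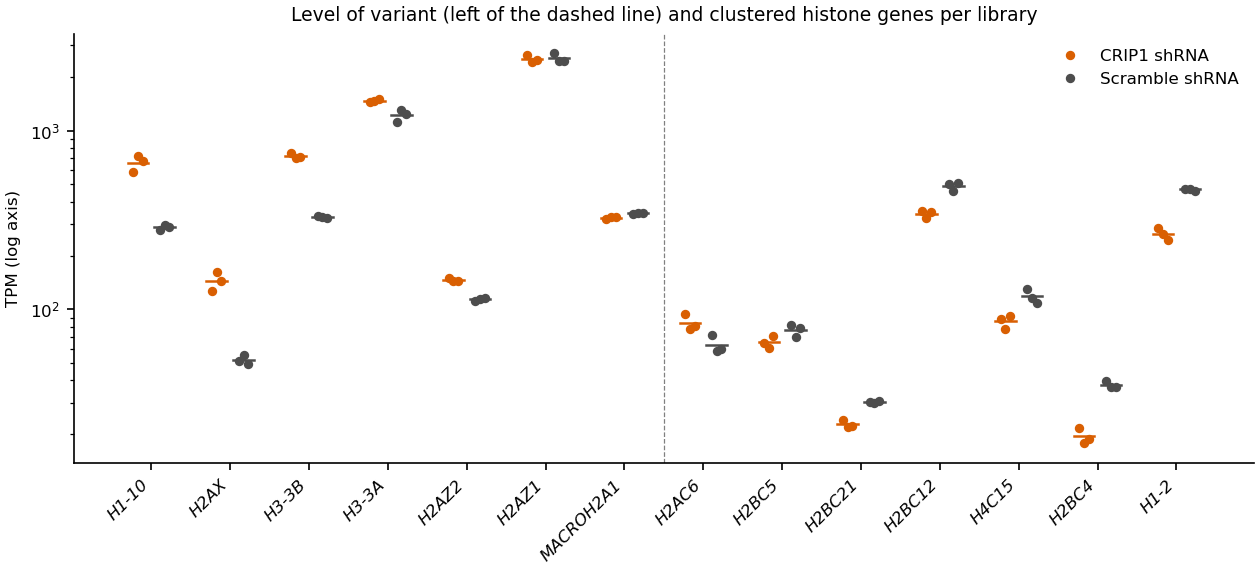
TPM per library (points, log axis) and group means (bars) of the variants H1-10 to MACROH2A1 (left of the dashed line) and of 7 clustered genes (right), CRIP1 shRNA in orange and Scramble shRNA in grey. H1-10 averaged 662.2 TPM in CRIP1 shRNA cells and 288 TPM in Scramble shRNA cells, while H1-2 averaged 264.4 TPM in CRIP1 shRNA cells and 468.6 TPM in Scramble shRNA cells.

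Clustered H2B genes, which supply a core histone paired with H2A in the nucleosome, gave the highest clustered levels. Of the 7 tested, 5 fell and 0 rose, beside 38.1% lower and 39.4% higher among all genes. H2BC12 (chromosome 6, 27146418 to 27146798), the most abundant clustered gene, had 353.18, 325.30 and 350.79 TPM in CRIP1 shRNA cells, against 500.67, 459.88 and 511.78 TPM in Scramble shRNA cells. All CRIP1 shRNA values were below all Scramble values, and H2BC12 fell by 0.58 on the log2 scale (SE 0.04, edgeR adjusted p = 1.84e-10). Its counts are uncertain between copies, since 74.1% of the 50-base windows of its GENCODE model occur in another annotated gene. That model holds the coding sequence alone. The authors' estimates used a longer transcript, over which the shared part was not measured. H2BC4 (chromosome 6, 26114873 to 26123926) had 21.72, 17.83 and 18.85 TPM in CRIP1 shRNA cells, against 39.89, 36.83 and 36.74 TPM in Scramble shRNA cells, and fell by 0.89 (SE 0.09, edgeR adjusted p = 3.27e-08). H2BC11 (chromosome 6, 27125897 to 27132750) had the largest fall of the clustered genes that passed the filter, with 4.64, 6.94 and 8.63 TPM in CRIP1 shRNA cells, against 30.88, 23.46 and 20.92 TPM in Scramble shRNA cells. The groups did not overlap, and H2BC11 stood 4.06-fold lower in the fit (log2 fold change -2.02, SE 0.25, edgeR adjusted p = 2.89e-07). It had 41 counts in CRIP1 shRNA cells and 153 in Scramble shRNA cells, and was over the filter in 2 CRIP1 shRNA libraries and 3 Scramble libraries. H2BC21 and H2BC5 fell by 0.55 (SE 0.06) and 0.35 (SE 0.08), H2BC5 with TPM values that overlapped between the groups. H2BC8 and H2BC15 did not pass the test. H2BC21, H2BC5, H2BC8 and H2BC15 were named after their values were seen.

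Of the 6 tested clustered H2A genes, which supply the other core histone of that pair, 2 rose, 1 fell and 3 did not pass the test. Among all genes, 39.4% rose and 38.1% fell. H2AW (chromosome 1, 228456979 to 228457873), the H2A gene of a small cluster of 3 members, had 15.26, 10.57 and 13.75 TPM in CRIP1 shRNA cells and 0 TPM in each Scramble library. It had 91 counts over the CRIP1 shRNA libraries and 0 over the Scramble libraries, which is at least 27.7-fold higher when the group at 0 is set to a floor of 3 counts in all (edgeR adjusted p = 1.17e-08). H2AW passed the filter through its CRIP1 shRNA libraries alone. H2AC6 (chromosome 6, 26124145 to 26139116) had 93.74, 78.04 and 80.34 TPM in CRIP1 shRNA cells, against 71.65, 58.25 and 59.65 TPM in Scramble shRNA cells, which do not overlap. Its log2 change of 0.27 was small (SE 0.10, edgeR adjusted p = 0.0211), and the call was lost with DESeq2 (adjusted p = 0.0702), with the GC trend removed (adjusted p = 0.37) and without CRIP1 shRNA replicate 1 (adjusted p = 0.0811), Scramble replicate 2 (adjusted p = 0.0958) or Scramble replicate 3 (adjusted p = 0.0874). H2AC8, H2AC11 and H2AC13 did not pass the test (edgeR adjusted p = 0.621, 0.159 and 0.673) and were named after their values were seen; H2AC11 passed without Scramble replicate 3 (log2 fold change -0.63, adjusted p = 0.0339).

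H3 and H4 form the core of the nucleosome. Of 5 tested clustered H3 genes, H3C10 rose and 4 fell, beside 39.4% higher and 38.1% lower among all genes. H3C4, H3C8 and H3C15 were over the filter in only some libraries. Of the rest, H3C10 rose and H3C6 fell. H3C10 (chromosome 6, 27810064 to 27811300) had 17.02, 13.51 and 11.84 TPM in CRIP1 shRNA cells, against 5.33, 6.99 and 4.84 TPM in Scramble shRNA cells. Each CRIP1 shRNA library was above each Scramble library, and the change was 2.22-fold (log2 fold change 1.15, SE 0.27, edgeR adjusted p = 6.80e-04) on 88 counts in CRIP1 shRNA cells and 36 in Scramble shRNA cells. H3C8, by contrast, had 1.91, 2.16 and 1.89 TPM in CRIP1 shRNA cells, against 6.01, 7.57 and 6.95 TPM in Scramble shRNA cells, and fell by 1.89 (SE 0.38, edgeR adjusted p = 1.50e-04). This rested on 13 counts in CRIP1 shRNA cells and 45 in Scramble shRNA cells. H3C8 was over the filter in 0 CRIP1 shRNA libraries and 3 Scramble libraries, so it was tested through its Scramble level. H3C4 and H3C6, named after their values were seen, fell by 0.88 (SE 0.28) and 0.87 (SE 0.26). Both had TPM values that overlapped between the groups, and H3C6 was not called by limma on TPM (adjusted p = 0.281). All 50-base windows of H3C4 also occur in the annotated gene AL031777.3, which also holds 98% of those of H2AC7. The counts of H3C4 and H2AC7 were not whole in most libraries and may be shared, so the value of H3C4 is uncertain. Of 4 tested H4 genes, the copies H4C14 and H4C15 fell, while H4C8 (log2 fold change 0.39, SE 0.18, edgeR adjusted p = 0.0558) and H4C9 (-0.62, SE 0.38, adjusted p = 0.142), named after their values were seen, did not pass the test. H4C8 passed without CRIP1 shRNA replicate 3 (0.55, adjusted p = 0.0103), and H4C9 without CRIP1 shRNA replicate 2 (-1.07, adjusted p = 0.0344).

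Some clustered genes are so alike that reads cannot be assigned to 1 copy, and their single values are read with their partner's. All 50-base windows of H2AC18, H3C15, H4C14 and H4C15 also occur in the partner copy. H2AC18 had 275, 401 and 91.02 counts in CRIP1 shRNA cells, against 381, 396 and 387 counts in Scramble shRNA cells, and the drop in CRIP1 shRNA replicate 3 stood beside 203.98 counts for its copy H2AC19, which had 0 counts in each other library. Together the pair had 275, 401 and 295 counts in CRIP1 shRNA cells, against 381, 396 and 387 counts in Scramble shRNA cells. In TPM the pair had 112.19, 149.03 and 118.92 in CRIP1 shRNA cells, against 150.95, 151.68 and 153.83 in Scramble shRNA cells, so CRIP1 shRNA replicate 2 lay just below the Scramble libraries once scaled. The pair's fitted log2 change was -0.40 (SE 0.10, edgeR adjusted p = 9.19e-04) where H2AC18 alone had -0.74 (SE 0.24, adjusted p = 0.00803; 0.231 by DESeq2). Without CRIP1 shRNA replicate 3 the value of H2AC18 was -0.34, and without CRIP1 shRNA replicate 2 it was -1.21. H4C14 with H4C15 fell by 0.78 (SE 0.07, edgeR adjusted p = 4.11e-09), and their summed TPM was 167.39, 147.20 and 173.11 in CRIP1 shRNA cells, against 242.64, 212.66 and 201.21 in Scramble shRNA cells. H3C14 with H3C15 fell by 1.39 (SE 0.32, edgeR adjusted p = 5.06e-04), although H3C15 alone was not called by DESeq2 (adjusted p = 0.19) and had -1.67 with all libraries but -1.08 without CRIP1 shRNA replicate 2. Summing the copies was chosen after the data were seen.

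**Figure D3:**
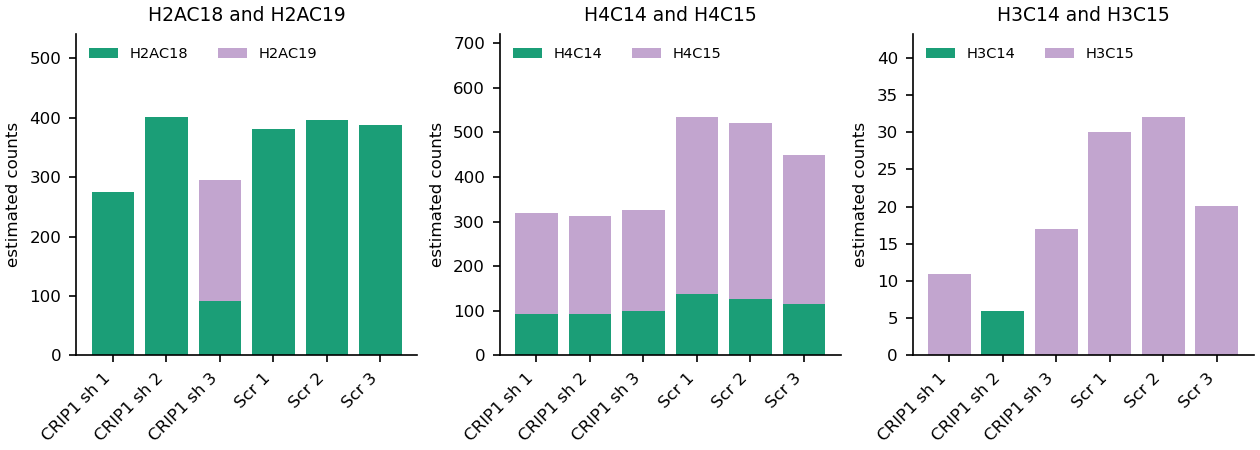
Estimated counts (y axis) of 3 pairs of near-identical clustered genes in each library, stacked by copy. In CRIP1 shRNA replicate 3, 203.98 of the 295 counts of the H2AC18 and H2AC19 pair stand under H2AC19, which has 0 in the other libraries.

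Summed over all members, tested or not, clustered genes gave 1340.9, 1249.8 and 1267.4 TPM in CRIP1 shRNA cells, against 1808.7, 1692.8 and 1709.0 TPM in Scramble shRNA cells, or 74.0% of the Scramble mean. Variants gave 6060.4, 5959.2 and 5997.2 TPM in CRIP1 shRNA cells, against 4940.7, 4899.5 and 4824.4 TPM in Scramble shRNA cells, or 123%. On log2(TPM + 1) the median change of all genes was 0.12, against 0.01 on counts, and percentages in TPM carry that shift. Neither class overlapped between the groups, and clustered genes made up 17.6% ± 0.423 of all histone TPM in CRIP1 shRNA cells and 26.2% ± 0.562 in Scramble shRNA cells (SD, n = 3 each). The families differed within the clustered class. Clustered H1 stood at 56.1% of the Scramble level, H2B at 70.6%, H3 at 84.6% and H4 at 85.0%, whereas H2A stood at 103% in TPM, 99.5% in FPKM and 98.7% in CPM. Both the H3 and the H4 sums overlapped between the groups in TPM. Of the variant families, H1 stood at 231% and H3 at 142%, while H2A stood at 103% in TPM and 99.6% in FPKM. H3-3A and H3-3B thus gave most of the H3 mRNA captured in both groups. Clustered H3 genes gave 1.38% of the H3 TPM in CRIP1 shRNA cells and 2.29% in Scramble shRNA cells. Shares of clustered genes describe captured mRNA, since the recovery of RNAs without a poly(A) tail was not measured.

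**Figure D4:**
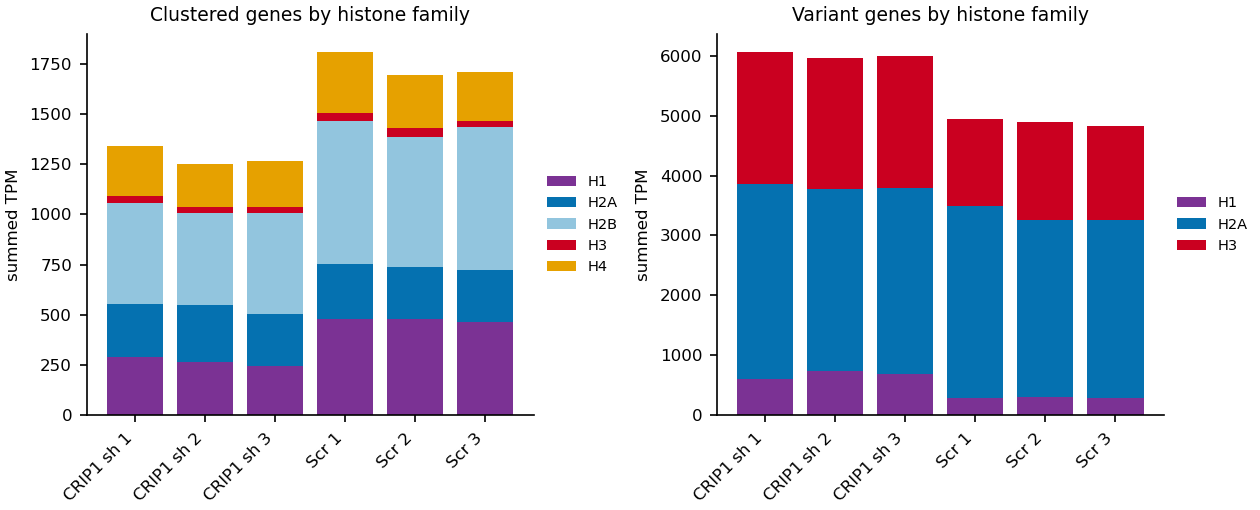
Summed TPM per library (y axis from 0), stacked by histone family, of the clustered genes (left) and the variants (right); CRIP1 shRNA libraries stand left of the Scramble (Scr) libraries. The clustered sums are 1249.8 to 1340.9 TPM in CRIP1 shRNA cells and 1692.8 to 1808.7 TPM in Scramble shRNA cells.

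Of the 11 members in the chromosome 1 cluster that holds H2BC21 (149884459 to 149886652), 5 were tested and all 5 fell (H2AC18, H2BC21, H3C15, H4C14 and H4C15). Of these, 4 share their sequence with a copy there. H4C14 and H4C15 are copies of each other and not separate results, and H3C15 was over the filter in only some libraries. In the large cluster of chromosome 6, 18 of 49 members were tested, of which 2 rose, 9 fell and 7 did not pass the test. Among all genes, 39.4% rose and 38.1% fell. Of the 3 members in the chromosome 1 cluster that holds H2AW, H2AW was the tested one and rose, while its neighbour H2BU1 had 0 counts in every library.

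Many H2A and H2B genes stand head to head and share the stretch between their starts. Among members with a RefSeq promoter start, 10 such pairs were found, with 194 to 248 bases between starts. In 3 of them both partners were tested. H2AC12, which stands beside H2BC12 on the opposite strand, had no such start and was left out. It had 0 counts in every library. H2AC6 rose and its partner H2BC4 fell. The ratio of H2AC6 to H2BC4 counts was 1.46, 1.18 and 1.22 in CRIP1 shRNA cells, against 0.668, 0.578 and 0.485 in Scramble shRNA cells, so each CRIP1 shRNA library was above each Scramble library. The log2 ratio differed by 1.16 (exact two-sided permutation p = 0.1, the smallest that 3 against 3 allows; 0.15 adjusted over the 3 pairs). H2AC11 did not pass the test while H2BC11 fell. Their ratio was 2.22, 1.87 and 1.41 in CRIP1 shRNA cells, against 0.629, 0.592 and 0.452 in Scramble shRNA cells, a log2 difference of 1.71 with no overlap (exact permutation p = 0.1, adjusted 0.15). For H2AC8 and H2BC8, of which neither passed the test, the ratio was 0.783, 1.58 and 0.895 in CRIP1 shRNA cells, against 0.773, 0.824 and 0.786 in Scramble shRNA cells, which overlap (log2 difference 0.38, exact permutation p = 0.3, adjusted 0.3). The pairs were looked at after the partners' calls were known.

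**Figure D5:**
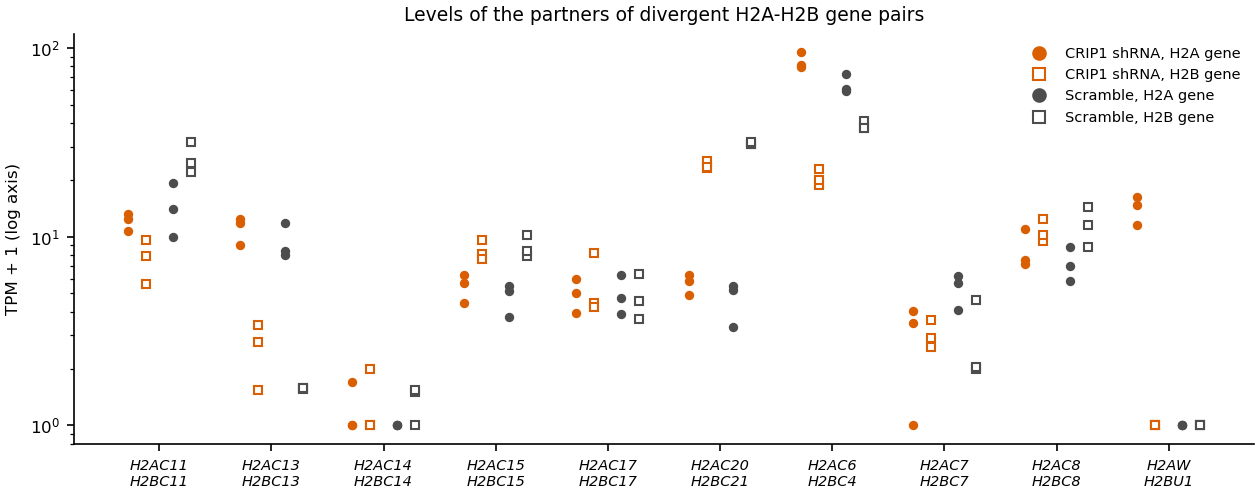
TPM + 1 per library (log axis) of both partners of the 10 head-to-head gene pairs found by promoter start. H2A genes are filled circles and H2B genes open squares, with CRIP1 shRNA in orange and Scramble shRNA in grey. H2BC4 averaged 19.47 TPM in CRIP1 shRNA cells and 37.82 TPM in Scramble shRNA cells, while H2AC6 averaged 84.04 TPM in CRIP1 shRNA cells and 63.18 TPM in Scramble shRNA cells.

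The shared stretches of the pairs with unlike calls, and the window of H2AW, are printed from RefSeq (GRCh38.p14) as 250 bases before to 50 bases after the start, on the gene's own strand. Matches on either strand to TATAAA, the core of many promoters, to CCAAT, and to the octamer ATTTGCAT, which POU2F1 binds in H2B promoters, are in capitals, and matches that overlap run together.
H2AC6 (chr6:26123922-26124221, plus strand; holds the whole stretch shared with H2BC4): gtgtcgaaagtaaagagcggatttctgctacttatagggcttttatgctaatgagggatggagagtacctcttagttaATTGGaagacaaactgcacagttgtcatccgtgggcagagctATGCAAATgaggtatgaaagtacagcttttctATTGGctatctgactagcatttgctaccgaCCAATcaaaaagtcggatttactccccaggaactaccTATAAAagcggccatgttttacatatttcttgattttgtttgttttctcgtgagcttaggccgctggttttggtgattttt
H2AC11 (chr6:27132793-27133092, plus strand; holds the whole stretch shared with H2BC11): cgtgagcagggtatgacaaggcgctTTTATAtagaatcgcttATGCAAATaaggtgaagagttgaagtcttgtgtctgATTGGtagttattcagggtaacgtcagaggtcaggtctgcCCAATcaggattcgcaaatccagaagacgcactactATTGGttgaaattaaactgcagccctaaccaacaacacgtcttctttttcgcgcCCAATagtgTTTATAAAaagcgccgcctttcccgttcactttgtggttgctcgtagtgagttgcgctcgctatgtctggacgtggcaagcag
H2AW (chr1:228457824-228458123, minus strand): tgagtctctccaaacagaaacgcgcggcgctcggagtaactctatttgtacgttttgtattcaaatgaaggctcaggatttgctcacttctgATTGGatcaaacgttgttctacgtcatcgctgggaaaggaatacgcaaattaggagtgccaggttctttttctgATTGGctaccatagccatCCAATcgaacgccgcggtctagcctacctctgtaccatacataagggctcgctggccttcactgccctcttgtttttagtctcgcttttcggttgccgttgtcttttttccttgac
The H2AC6 window held 1 TATAAA, 3 CCAAT and 1 octamer match, and the H2AC11 window held 3, 4 and 1. The H2AW window held 3 CCAAT matches and 0 of the other motifs. Of 60 clustered genes found in the table of 35116 promoters, 65% held TATAAA, against 27.8% of 18 variants and 11.5% of all promoters. Among tested genes alone the classes were closer, with TATAAA in 16 of 24 clustered genes and 5 of 9 variants. The octamer stood in 40% of the 60 clustered genes, against 5.56% of the 18 variants and 1.77% of all promoters. It stood in 13 of 17 H2B and 10 of 15 H2A genes, 1 of 12 H3 genes and 0 H1 or H4 genes. Head-to-head partners share much of their windows, so 1 site can count for both genes, as it did for H2AC6 and H2BC4. The H3 match, in H3C4, lay in a window that is also that of H2AC7. CCAAT stood in both classes, with 85% of clustered and 88.9% of variant windows beside 34.6% of all. These are letter matches and not measured binding.

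The length that the authors' estimates used for a gene bears on what its counts represent. Counts divided by FPKM, scaled by the library total, give this effective length in bases. It does not show where reads fell, and the authors' models need not be those of GENCODE. H2BC12 had 444 to 532 bases, against 381 in its longest GENCODE model. For H4C15 it was 257, 276 and 255 bases in CRIP1 shRNA cells, against 304, 338 and 313 bases in Scramble shRNA cells, with no overlap, so a count of H4C15 stood for a higher level per length in CRIP1 shRNA cells; its TPM averaged 85.97 in CRIP1 shRNA cells and 118.5 in Scramble shRNA cells. For H2BC21 it was 1945 bases in CRIP1 shRNA cells and 1946 bases in Scramble shRNA cells, near the full model that runs 1729 bases past the stem-loop. Other genes with a long model had a short effective length. In CRIP1 shRNA cells and in Scramble shRNA cells the means were 241.2 and 242.1 bases for H2AC6 and 215.8 and 216.6 for H2AC11. They were 209 and 210 for H3C10, and 218.7 and 219.9 for H3C8. The longest models of these genes hold, in that order, 1654, 2250, 1237 and 2411 bases. An effective length is not a transcript length, and it can also lie below a short model. For H2AC18 it averaged 255 and 255.9 bases, against 549 in the longest model, and for H1-10 1237 and 1238, against 1507. The counts cannot tell where within a gene its reads lay, so stem-loop and read-through forms were not separated.

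Genes under the filter add little at this depth. Of the 64 clustered genes, 40 were not tested, 25 had under 15 counts over all libraries and 6 had 0, which allows up to 3 counts over a group. Fitted without the filter, H1-5, a clustered linker gene, had 4 counts in CRIP1 shRNA cells and 22 in Scramble shRNA cells (log2 fold change -2.49, edgeR adjusted p = 0.00199). H4C11 had 10, 7 and 0 counts in CRIP1 shRNA cells and 0 in each Scramble library (edgeR adjusted p = 0.0087), but 81.2% of its 50-base windows occur in H4C12. H4C12 had 0, 0 and 8 counts in CRIP1 shRNA cells, against 4, 2 and 0 counts in Scramble shRNA cells, so the value of H4C11 alone is uncertain. The other untested members, H2AC19 aside, did not pass that fit.

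The genes around histone mRNAs were called in both directions. Of 28 tested genes for transcription and 3′ processing of histone mRNAs, 12 rose and 10 fell (median log2 change 0.06), near the 39.4% and 38.1% of all genes. With the GC trend removed 7 rose and 11 fell, beside 34% and 45% of all genes, and on TPM 15 rose and 4 fell, beside 47% and 29.6%. SLBP, the stem-loop binding protein, averaged 153.8 TPM in CRIP1 shRNA cells and 113.8 TPM in Scramble shRNA cells, a log2 change of 0.30 (SE 0.04, edgeR adjusted p = 9.00e-07). NPAT, which switches histone transcription on in S phase, had a log2 change of 0.23 (SE 0.06), or -0.02 with the GC trend removed. LSM10, a protein of the U7 particle, fell by 0.74 (SE 0.07), and SRRT, which links the cap to RNA processing, fell by 1.69 (SE 0.04) with 31.49 TPM in CRIP1 shRNA cells and 94.37 TPM in Scramble shRNA cells. MIF4GD, a translation partner of SLBP, rose by 1.56 (SE 0.07), NELFE, a subunit of the elongation pausing factor NELF, by 0.94 (SE 0.04), and FIP1L1, a cleavage factor subunit, by 0.71 (SE 0.04). SLBP, NPAT and LSM10 were named for their roles after their values were seen. Of 18 genes for cleavage and polyadenylation of other mRNAs, 7 rose and 8 fell.

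Of 30 genes for S phase and replication, which are known to be induced together with clustered histone genes, 16 rose and 7 fell (median 0.13), beside 39.4% higher and 38.1% lower among all genes. The counts were 15 and 10 with the GC trend removed, beside 34% and 45% of all genes, and 19 and 4 on TPM, beside 47% and 29.6%. RRM2, the regulated subunit of ribonucleotide reductase, had 900.3 TPM in CRIP1 shRNA cells and 363.6 TPM in Scramble shRNA cells and rose by 1.17 (SE 0.03), and CCNE2, an S phase cyclin, rose by 1.58 (SE 0.05). CDK2, the kinase that cyclin E binds, fell by 0.69 (SE 0.04), and E2F1, an activator of S phase genes, fell by 0.73 (SE 0.04). Of 20 G2 and mitosis genes, 7 rose and 9 fell (median -0.08). With the GC trend removed 4 rose and 13 fell, and on TPM 9 rose and 8 fell (median 0.06), each beside the same shares of all genes. The share of cells in S phase was not measured.

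Histone chaperones carry new histones to DNA and exchange them. Of 22 tested H3 and H4 chaperone genes, 9 rose and 11 fell (median -0.09), and of 20 H2A and H2B chaperone and exchange genes, 5 rose and 11 fell (median -0.21), beside the 39.4% higher and 38.1% lower of all genes. With the GC trend removed the splits were 6 and 13, and 2 and 14, beside 34% and 45% of all genes; on TPM they were 8 and 8, and 7 and 9, beside 47% and 29.6%. DAXX, which with ATRX places the replacement H3 at silent chromatin, fell by 0.90 (SE 0.05), and IPO4, an importin for H3 and H4, fell by 0.98 (SE 0.06). TONSL, which binds new H4 at replication forks, fell by 0.78 (SE 0.05), while HJURP, the chaperone of the centromeric H3, rose by 0.59 (SE 0.04). SRCAP, the motor that exchanges H2A for H2A.Z, fell by 0.75 (SE 0.04), as did the nucleolar chaperones NPM1 by 0.58 (SE 0.03) and NCL by 0.55 (SE 0.03), and IPO9, the importin for H2A and H2B, by 0.82 (SE 0.05).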

How the data were processed

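Per the labels' protocols, total RNA was extracted with TRIzol and libraries were made with a SMARTer mRNA kit; sample titles gave the group and replicate. Tools named in the submitters' processing notes are RSEM 1.2.8, HISAT2 2.1.0 and Bowtie2 2.2.5, with GRCh38.p13 as build and no roles given. Before deposit the authors made estimated counts, which need not be whole, for each gene and library, per the file headers. The authors' deposited FPKM values divide these by gene length and library total, and their deposited TPM values are also scaled to 1 sum per library, per the file headers. Annotation and strand setting are not given in the sources used here, so antisense or overlapping genes may share counts.

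Members were found by symbol and split into clustered and variant genes. Estimated counts were rounded and tested across all genes with edgeR 4.0.16 in R 4.3.3: filterByExpr at a minimum count of 10, TMM scaling, group alone, the quasi-likelihood test and Benjamini-Hochberg adjustment over 12612 genes at 0.05. SEs are the absolute log2 change over the root of F. The common biological coefficient of variation was 3.33%. Floors of 3 counts cover counting error only. Named were CRIP1, every tested variant, the 5 clustered genes of highest mean TPM, up to 6 called clustered genes with the largest change in each direction, and from each pathway list its 4 smallest adjusted p and its largest called fold; others are marked; a gene may be named by this rule and yet not be reported here. The members and lists were chosen with earlier results of these data known.

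Alternatives were a replicate block, DESeq2 1.42.0 (test and size factors), upper-quartile scaling, no filter, at least 50 counts in 3 libraries, limma 3.58.1 on log2(FPKM + 1) and log2(TPM + 1), removal of a GC trend (loess, span 0.5), each library left out, the solitary gene left out, CPM (counts scaled to the library total) or FPKM in the sums and, added after the data were seen, near-identical copies summed. Same-numbered libraries deviated together with correlations of 0.0455, -0.00877 and -0.0133 between the groups, so the numbers do not pair them. Positions and transcripts are from GENCODE 29 and promoters from RefSeq.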

Additional observations from a re-analysis of the deposited data

How the results depend on the processing

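The directions of the clustered and variant medians held under the alternatives run. The clustered median log2 change of -0.56 became -0.32 with no filter, -0.25 on log2(FPKM + 1) and -0.18 on log2(TPM + 1), and leaving out each library gave -0.60 to -0.48. The variant median of 0.35 became 0.75 with no filter, 0.61 with at least 50 counts in 3 libraries and 0.46 on TPM, and leaving out each library gave 0.18 to 0.56. The median of all genes was 0.12 on TPM and -0.08 with the GC trend removed, against 0.01. Clustered genes called higher numbered 5 with no filter and 1 with at least 50 counts, which also left 8 called lower; variants called lower numbered 1 on FPKM and 1 on TPM. As a percent of Scramble, the clustered sum was 68.4 in CPM and the variant sum 119 in FPKM and 135 in CPM. Clustered H2A turned to 99.5 in FPKM and 98.7 in CPM, and variant H2A to 99.6 in FPKM; clustered H4 was 69.6 and variant H3 160 in CPM. H3-3A turned to -0.06 with the GC trend removed, and H2AC8, not called, to -0.14 without CRIP1 shRNA replicate 2. Except where the alternative tests fewer genes, the cause was not tested.

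With the replicate number as a block, 4 clustered genes were called higher (H4C8 joining, log2 change 0.39, adjusted p = 0.0453) and 14 lower, 6 variants higher and 3 lower, with medians of -0.565 and 0.351. Over all alternatives, 16 calls of single genes were lost with their direction kept, that of H3-3A was lost as its sign turned, and 11 were gained. Depth limits the genes of few counts: 40 clustered genes could not be tested.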
